A study of Homo sapiens with 2 samples.

Results

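The genes of 44 nuclear hormone receptors were examined in bulk RNA-seq of SUM159 cells that had become resistant to doxorubicin, and by level per kb of exon the orphan receptor NR2F6, the glucocorticoid receptor NR3C1 and the estrogen-related receptor ESRRA were highest, with 45.0% of the family in replicate 1 and 43.9% in replicate 2. The receptors were taken from a fixed list of symbols, all 44 of which are among the 23368 gene symbols of the count files. They were sorted into 4 classes, with 5 steroid receptors, 9 thyroid hormone, retinoid and vitamin D receptors (called thyroid and retinoid here), 8 lipid sensing receptors and 22 orphan receptors. SUM159 is a triple-negative breast cancer cell line, and the cells were wild type, grown attached and made resistant by long treatment with rising doses of the drug, given for short periods with recovery in medium without it. The growth medium of both libraries held 1 μg/mL hydrocortisone, 5 μg/mL insulin and 5% serum. There were 2 libraries of polyadenylated RNA, replicates 1 and 2 of this single condition, with 23044084 and 17985508 counts in genes. Treatment-naïve cells were not analysed here, so levels are given and no fold change against untreated cells. Whether separate cultures were used for the libraries is not stated, and the spread between them may be technical. Values are counts per 1000000 counts of the library (CPM), with the mean ± SD over the 2 libraries or both values. Where genes are compared with each other, CPM were divided by the exonic length in kb. Of the mesenchymal markers, VIM had 8159 and 6925 CPM in replicates 1 and 2, FN1 2027 and 5101 CPM and SPARC 1989 and 2171 CPM. ZEB1 was lower with 40.9 and 71.6 CPM, and the 4 genes summed to 12215 and 14268 CPM. Of the epithelial markers, KRT8 and KRT18 had means of 265 and 346 CPM, and EPCAM and CDH1 of 0.297 and 0.557 CPM. Of 3 leukocyte markers CD3E had no counts, whereas PTPRC and CD14 had 1.90 and 11.5 CPM, and of 3 endothelial markers only PECAM1 averaged 20 counts or more.

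Nuclear receptors are transcription factors that bind DNA through a domain of paired zinc fingers and that carry a separate domain for a small, fat-soluble ligand. Steroid receptors wait in complexes with HSP90 chaperones until a hormone binds, whereas thyroid, retinoid, vitamin D and most lipid sensing receptors sit on DNA with a retinoid X receptor (RXR) as partner, where the ligand exchanges corepressors for coactivators. Orphan receptors have no known natural ligand or one found long after the gene. In breast tissue the family is best known for the estrogen and progesterone receptors, whose absence helps to define triple-negative tumors.

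The DNA-binding domain divides the family by a short element at the base of its leading zinc finger, the P box, which reads the bases of the hormone response element. Its coding bases were located in the GENCODE transcripts of GRCh37 for all 44 genes, and they are shown for the most abundant receptors and for those that define triple-negative tumors, because they show which kinds of DNA reader the cells make. Capitals mark the second, the third and the last codon of the element.
NR3C1: tgtGGAAGCtgtaaaGTT
PGR: tgtGGGAGCtgtaagGTC
ESR1: tgtGAGGGCtgcaagGCC
ESRRA: tgtGAGGCCtgcaaaGCC
NR2F6: tgcGAGGGCtgcaagAGC
RXRA: tgcGAGGGGtgcaagGGC
NR1H2: tgcGAAGGCtgcaagGGC
RARG: tgtGAAGGCtgcaagGGC
These runs lie in the coding exons, for example at chr5:142693589-142693606 on the minus strand for NR3C1, at chr9:137300809-137300826 on the plus strand for RXRA and at chr19:17355796-17355813 on the minus strand for NR2F6. Translation gave 9 kinds of P box. The most common was shared by 27 genes, among them all thyroid and retinoid and all lipid sensing receptors, and was written with 22 different base runs. NR3C1, NR3C2 and PGR shared another kind, ESR1 and ESR2 a further one, the 3 estrogen-related receptors their own, and NR2F1, NR2F2 and NR2F6 theirs.

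When the levels per kb were summed over the genes of each kind, receptors with the common P box held 51.1% of the family in replicate 1 and 52.0% in replicate 2. The kind of NR2F1, NR2F2 and NR2F6 held 23.4% and 19.3%, and that of the estrogen-related receptors 13.6% and 9.83%. The glucocorticoid kind held 11.7% in replicate 1 and 18.7% in replicate 2, which is the widest gap between the libraries among the kinds. ESR1 and ESR2 together held 0.0208% and 0.0263%, with at most 11 counts for either gene in a library. The kinds of NR5A1 with NR5A2, of NR2E1 and of NR2E3 had no counts at all.

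Of the 44 receptors, 25 (56.8%) averaged 20 counts or more, which is the minimum of the study and is called expressed here, against 52.8% of all gene symbols and 61.7% of protein-coding genes matched to the annotation. A further 10 had counts below this minimum, and 9 (20.5%) had none in either library, against 28.1% of all gene symbols. The lowest receptor past the minimum, NR4A3, had a mean count of 31, and the highest under it, RXRG, had 16.5. With an upper limit of 3 counts for a gene at 0, such a gene may still have had 0.130 CPM in the deeper replicate 1 or 0.167 CPM in the other library, a bound on counting error alone. An average of 1000 counts or more was found for 10 receptors (22.7%), against 20.6% of all gene symbols. The median of the receptors past the minimum was 30.6 CPM, and that of all genes past it was 34.1 CPM. In these shares and medians the family was close to the genes as a whole.

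The family as a whole summed to 219 and 227 CPM per kb in replicates 1 and 2. Orphan receptors made up the largest part in both libraries, with 104 ± 5.34 CPM per kb (SD, n = 2). This was 49.3% of the family in replicate 1 and 44.2% in replicate 2, for a class that holds 22 of the 44 genes. Thyroid and retinoid receptors followed with 50.7 ± 2.45 CPM per kb (SD, n = 2). Lipid sensing receptors had 34.3 ± 3.23 CPM per kb (SD, n = 2) and steroid receptors 34.1 ± 11.9 CPM per kb (SD, n = 2). The order of these last classes turned between the libraries, since steroid receptors had 25.7 and 42.5 CPM per kb and lipid sensing receptors 36.6 and 32.0 CPM per kb. On the CPM scale, without division by length, the sums were 309 ± 108 CPM for steroid, 357 ± 13.1 CPM for thyroid and retinoid, 189 ± 12.97 CPM for lipid sensing and 419 ± 9.27 CPM for orphan receptors (SD, n = 2 each).

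**Figure D1:**
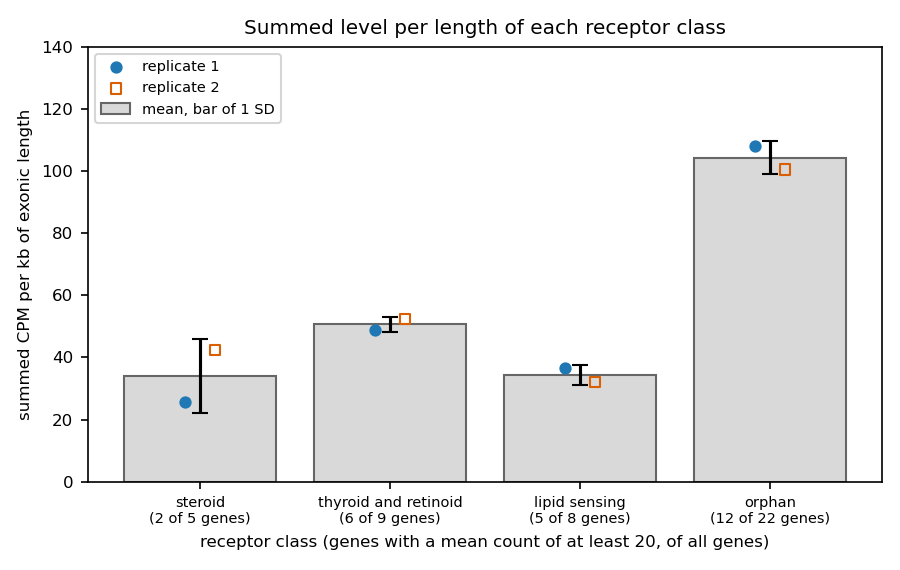
Summed CPM per kb of exonic length of the 4 receptor classes. Bars are means over the 2 doxorubicin-resistant libraries with an error bar of 1 SD, circles are replicate 1 and squares replicate 2. The orphan class, with 22 of the 44 genes, stands highest at 104 CPM per kb, while the steroid libraries lie apart at 25.7 and 42.5 CPM per kb.

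The steroid class rested on the glucocorticoid receptor. NR3C1, which mediates the response to cortisol and its drug form hydrocortisone, was found at chr5:142657496-142815077 of GRCh37 with 5156 counts in replicate 1 and 6688 in replicate 2. This corresponds to 224 and 372 CPM, and the mean of 298 CPM was above that of 97.6% of all gene symbols. Replicate 2 was 1.66-fold higher, which passed edgeR's exact binomial test (adjusted p = 4.96e-167), a test that compares these libraries and not conditions and takes account of counting error alone. It called 57.7% of all genes tested. NR3C2, the mineralocorticoid receptor, which binds aldosterone and also cortisol, had 193 and 220 counts, equal to 10.3 ± 2.73 CPM (SD, n = 2). Per kb, NR3C1 held 95.04% and 95.6% of the sum of NR3C1, NR3C2 and PGR.

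The sex hormone receptors of the list were at or near the limit of detection. ESR1, the estrogen receptor alpha by which luminal tumors are recognised, had 11 and 9 counts, equal to 0.489 ± 0.0163 CPM (SD, n = 2). ESR2, the beta form, had 3 and 5 counts. PGR, the progesterone receptor and itself an estrogen target, had 2 and 0 counts. None of them reached a mean count of 20, and in both libraries the lowest of the expressed steroid receptors, NR3C2, was above them. ESR1 and ESR2 were both in the range of a few counts, so that no order between them can be read.

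Among the retinoid receptors, RXRA, RARG and RARA carried nearly all counts, but RXRB lies among genes with low counts, as given below. RXRA, the common partner of the class (chr9:137208944-137332431), showed 3585 and 2768 counts, equal to 155 ± 1.18 CPM (SD, n = 2). Its libraries were not called different (adjusted p = 0.757, exact binomial test of edgeR), and it held 97.2% and 98.0% of the RXR sum per kb. RXRG, a form of muscle and brain, had 22 and 11 counts. RXRB (chr6:33161365-33168442) showed 1 and 2 counts.

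Most genes around RXRB were low as well. Of the 12 protein-coding genes within 100000 bases of it, RXRB included, 4 were expressed, and the median was 0.158 CPM. Within 2000000 bases 26 of 114 were (22.8%), against 470 of 864 on all of chromosome 6 (54.4%). RPS18, a ribosomal protein gene close by that all cells use, had 51 and 21 counts, and SLC39A7, which overlaps RXRB by 361 bases on the opposite strand, had 4 in each library. The part of the region in the low count of RXRB was not tested.

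The retinoic acid receptors turn on genes of differentiation when they bind all-trans retinoic acid. RARG (chr12:53604351-53626764) showed 1940 and 1268 counts, equal to 84.2 and 70.5 CPM. RARA (chr17:38465432-38513895) showed 1084 and 1186 counts, equal to 47.0 and 65.9 CPM. RARB, often silenced in breast tumors, had no counts in either library. Per kb of exonic length, RARG held 62.3% of the RAR sum in replicate 1 and 49.7% in replicate 2. By this length it stood above RARA in replicate 1 and level with it in replicate 2. Per kb of the longest transcript, RARG held 60.6% and RARA 39.4% of the RAR sum of the means. The differences of both between the libraries went opposite ways and were beyond counting error in the exact binomial test of edgeR, with adjusted p = 2.67e-06 for RARG, higher in replicate 1, and 5.64e-15 for RARA, higher in replicate 2.

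Of the thyroid hormone receptors, THRA had 667 and 579 counts, equal to 30.6 ± 2.30 CPM (SD, n = 2), and THRB had 34 and 61. THRA held 96.7% and 93.4% of their sum per kb. THRA overlaps NR1D1 on the opposite strand by 473 bases, which is 6.45% of the exonic length of THRA and 17.98% of that of NR1D1, and without a stated strand setting reads in the overlap cannot be assigned. VDR, the receptor of active vitamin D, had 691 and 721 counts, equal to 35.0 ± 7.14 CPM (SD, n = 2). THRB and VDR were both higher in replicate 2 (adjusted p = 0.000190 and 2.07e-07, exact binomial test of edgeR), by 2.30-fold and 1.34-fold.

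Lipid sensing receptors were present as NR1H2 and PPARD and, at lower levels, as PPARA, PPARG and NR1H3. NR1H2, the widely expressed liver X receptor beta that senses oxysterols (chr19:50832910-50886645), showed 2181 and 1418 counts, equal to 86.7 ± 11.2 CPM (SD, n = 2). Its relative NR1H3, the alpha form of liver and macrophages, had 311 and 174 counts, equal to 11.6 ± 2.70 CPM (SD, n = 2). NR1H2 held 85.6% and 87.4% of their sum per kb, and the ranges of the pair did not overlap. NR1H2 shares 1182 exonic bases with NAPSA on the opposite strand, which itself had 28 and 8 counts.

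The peroxisome proliferator-activated receptors bind fatty acids and set lipid burning and storage. PPARD (chr6:35310335-35395968) showed 1366 and 971 counts, equal to 56.6 ± 3.74 CPM (SD, n = 2), and held 84.9% and 80.8% of the PPAR sum per kb. PPARA, the form that drives fatty acid oxidation, had 328 and 417 counts, equal to 14.2 and 23.2 CPM. PPARG, the form of fat cells, had 358 and 242 counts, equal to 14.5 ± 1.47 CPM (SD, n = 2). Per kb of exonic length PPARG was above PPARA in replicate 1 and below it in replicate 2, so that these forms cannot be ranked by it. Per kb of the longest transcript, PPARG had a mean of 3.20 and PPARA of 1.85 CPM per kb.

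Of the receptors of liver and gut given here, only HNF4G was expressed, at a low level. NR1I2, the pregnane X receptor, and NR1I3, the constitutive androstane receptor, which both induce genes of drug metabolism, had no counts in either library. NR1H4, the bile acid receptor, had 17 and 8 counts. HNF4A, a master factor of liver cells, had 0 and 1 counts, whereas its relative HNF4G had 45 and 35, equal to 1.95 ± 0.00479 CPM (SD, n = 2). NR1I3 shares 663 exonic bases with TOMM40L on the opposite strand, and that gene had 380 and 238 counts.

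The orphan class was led by NR2F6 and ESRRA. NR2F6, a repressor of the chicken ovalbumin upstream promoter (COUP) group (chr19:17342692-17356728), showed 2723 and 1761 counts, equal to 118 and 97.9 CPM. NR2F2, a COUP factor of mesenchymal and venous cells, had 1003 and 810 counts, equal to 44.3 ± 1.07 CPM (SD, n = 2), and NR2F1 had 3 and 0. NR2F6 held 86.8% and 84.1% of the sum of the group per kb. The libraries were not called different for NR2F2 (adjusted p = 0.575, exact binomial test of edgeR), whereas NR2F6 was higher in replicate 1 (adjusted p = 2.80e-09).

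ESRRA, which drives genes of mitochondria and oxidative metabolism (chr11:64072969-64084215), showed 2131 and 1247 counts. This is 92.5 and 69.3 CPM, a 1.33-fold difference in favour of replicate 1 (adjusted p = 2.02e-15, exact binomial test of edgeR). ESRRG had 2 and 1 counts and ESRRB, a factor of embryonic stem cells, had none, so that ESRRA held 99.97% of the group per kb in replicate 1 and 99.98% in replicate 2. ESRRA overlaps TRMT112 by 284 bases on the opposite strand, a gene with 99.1 ± 26.0 CPM (SD, n = 2).

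Receptors of the clock were all measurable except RORB. NR1D2 and NR1D1, the REV-ERB repressors that bind heme, had 1063 and 1326 counts for NR1D2 and 407 and 371 for NR1D1. NR1D2 was 1.60-fold higher in replicate 2 (adjusted p = 3.09e-29, exact binomial test of edgeR), and NR1D1 was not called (adjusted p = 0.0562). Per kb NR1D2 was above NR1D1 in both libraries, holding 54.2% and 61.9% of their sum. RORA, an activator at the same sites, had 48 and 52 counts, equal to 2.49 ± 0.572 CPM (SD, n = 2), and RORB had none.

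The testicular receptors NR2C1 and NR2C2, repressors that bind direct repeats, differed between the libraries in opposite directions. NR2C2 had 833 and 1211 counts, equal to 36.1 and 67.3 CPM, and NR2C1 had 490 and 309 counts, equal to 21.3 and 17.2 CPM. The changes of 1.86-fold towards replicate 2 and 1.24-fold towards replicate 1 both passed edgeR's exact binomial test (adjusted p = 3.59e-43 and 0.00712). Per kb NR2C1 held 51.9% of the pair in replicate 1 and 31.9% in replicate 2, so no order holds in both. NR2C2 shares 7157 exonic bases, 60.5% of its annotated exonic length, with MRPS25 on the opposite strand.

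The NR4A receptors are induced within minutes by growth factors and stress and act without a ligand. NR4A1 had 537 and 379 counts, equal to 22.2 ± 1.58 CPM (SD, n = 2), NR4A2 had 184 and 117 and NR4A3 had 31 in each library. The order NR4A1, NR4A2, NR4A3 was the same per kb in both libraries, with 59.7% and 60.9% of the sum in NR4A1. For none of the 3 genes was a library called higher by the exact binomial test of edgeR, with adjusted p from 0.141 to 0.465. The germ cell factor NR6A1 had 15 and 11 counts. NR5A1 and NR5A2, which drive steroid production, and NR2E1 and NR2E3, factors of brain and retina, had none.

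**Figure D2:**
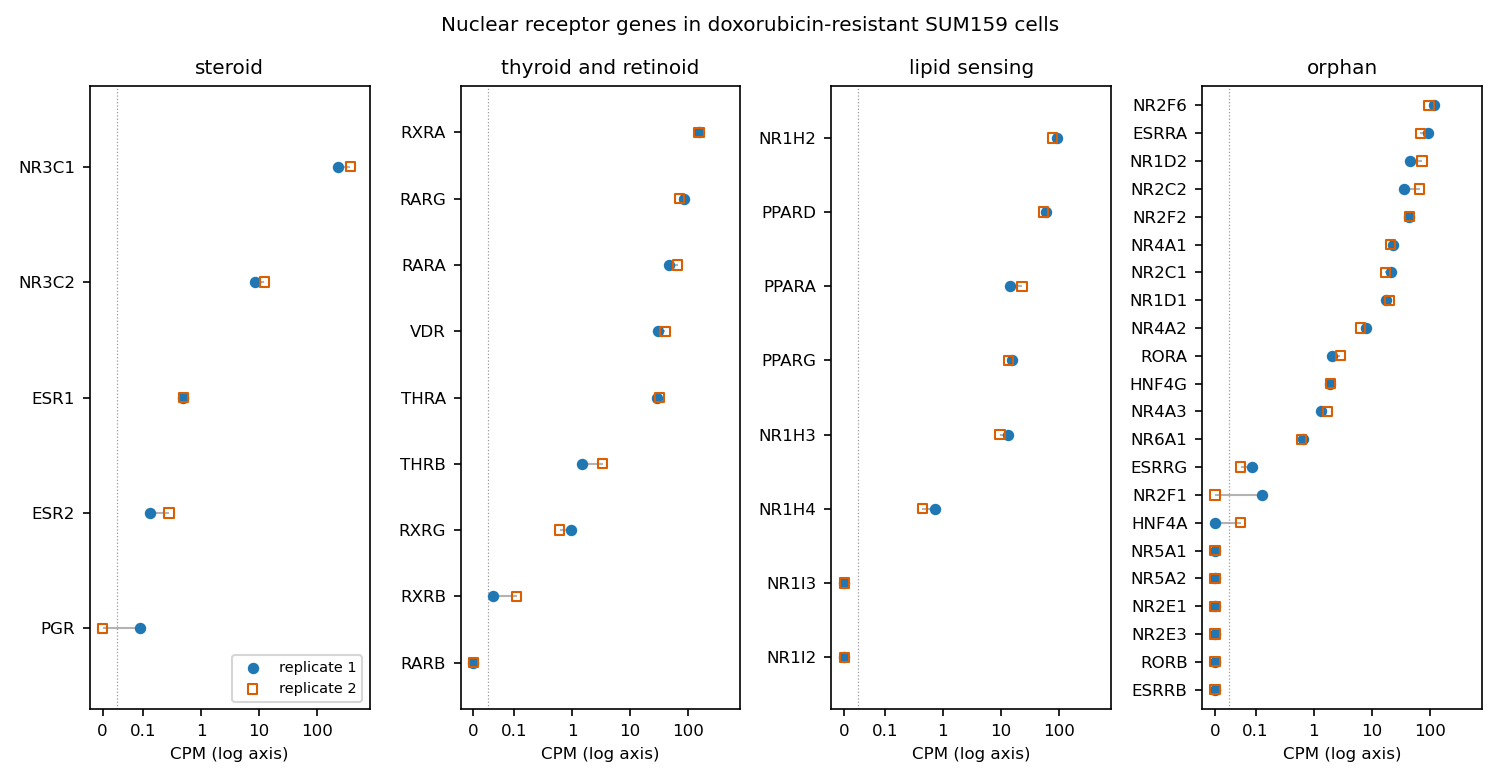
CPM on a log axis of the 44 receptors in 4 panels by class, with circles for replicate 1 and squares for replicate 2, and a gene at 0 drawn left of the dotted line. NR3C1 at 224 and 372 CPM is the highest point, 9 genes stand at 0 in both libraries, and levels of different genes are not corrected for length here.

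Ordered by level per kb, NR2F6 had the highest mean with 40.7 ± 5.39 CPM per kb (SD, n = 2), before NR3C1 with 32.5 ± 11.4 and ESRRA with 26.1 ± 5.28 CPM per kb (SD, n = 2 each). NR1H2 with 16.2 and RARG with 15.1 CPM per kb came next, and these 5 receptors held 60.6% of the family in replicate 1 and 56.4% in replicate 2. The order of the leading 3 was not fixed, since NR2F6 led in replicate 1 with 44.5 CPM per kb and NR3C1 in replicate 2 with 40.6 CPM per kb. ESRRA was above NR1H2 with ranges that did not overlap. RXRA, PPARD and RARA, with 12.8, 12.7 and 11.9 CPM per kb, could not be separated. Of the 24 pairs of neighbours in the order of the 25 receptors, 13 had the same order in both libraries and 7 had ranges that did not overlap. A larger step lay between PPARG with 1.21 and HNF4G with 0.406 CPM per kb, below which came NR4A3, THRB and RORA.

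**Figure D3:**
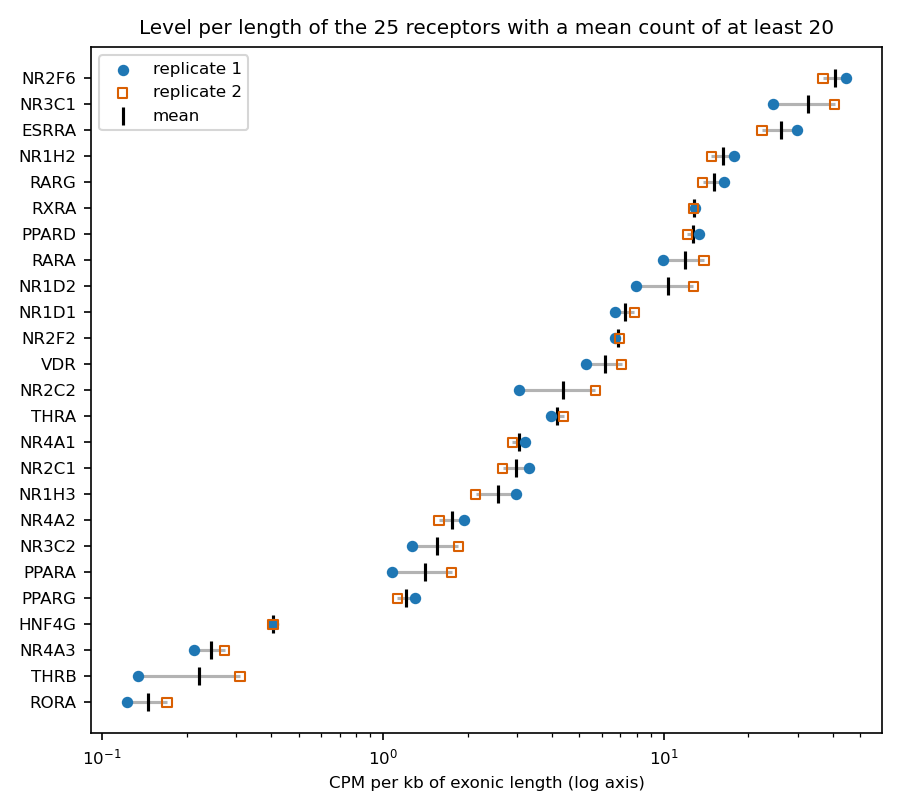
CPM per kb of exonic length, on a log axis, of the 25 receptors that were expressed, ordered by their mean. A circle stands for replicate 1, a square for replicate 2 and a vertical mark for the mean, from RORA at 0.146 to NR2F6 at 40.7 CPM per kb, and neighbours mostly overlap.

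Between the libraries, 8 of the 29 receptors with at least 10 counts were higher in replicate 2 and 7 were higher in replicate 1 in the exact binomial test of edgeR at an adjusted p below 0.05. These shares of 27.6% and 24.1% lie next to 30.1% and 27.6% of all 13744 genes tested, and 51.7% of the receptors were called in either direction against 57.7% of the genes, so the shares of the family were near the background. The receptors higher in replicate 2 were NR3C1, NR3C2, THRB, RARA, VDR, PPARA, NR1D2 and NR2C2. Those higher in replicate 1 were RARG, PPARD, NR1H2, NR1H3, ESRRA, NR2C1 and NR2F6. The log2 ratio of replicate 2 over replicate 1 ran from -0.68 for NR1H4, which was not called, to 1.19 for THRB, and THRB alone of the 29 differed by over 2-fold. At least 1.5-fold apart, with no test, were 5 receptors towards replicate 2 and 2 towards replicate 1, against 12.9% and 9.04% of the genes.

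Exonic length moved with this difference. The receptors higher in replicate 2 had a median exonic length of 7884 bases, and those higher in replicate 1 a median of 4534 bases. Spearman's rho between the log2 ratio and the exonic length was 0.56 over the 29 receptors, which share these libraries, and 0.52 over 11781 genes. After the median of genes of like length was subtracted, the log2 ratio of NR3C1 went from 0.73 to 0.54, that of NR2C2 from 0.90 to 0.58 and that of PPARA from 0.70 to 0.26, whereas that of RARA went from 0.49 to 0.48. Only THRB with 0.87 and NR1D2 with 0.61 were then beyond 1.5-fold, both towards replicate 2, against 8.28% of genes in that direction and 7.43% in the other. RXRA went from -0.02 to -0.33, so that its ratio lay below the median ratio of genes of like length. The part of length in each difference was not tested.

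**Figure D4:**
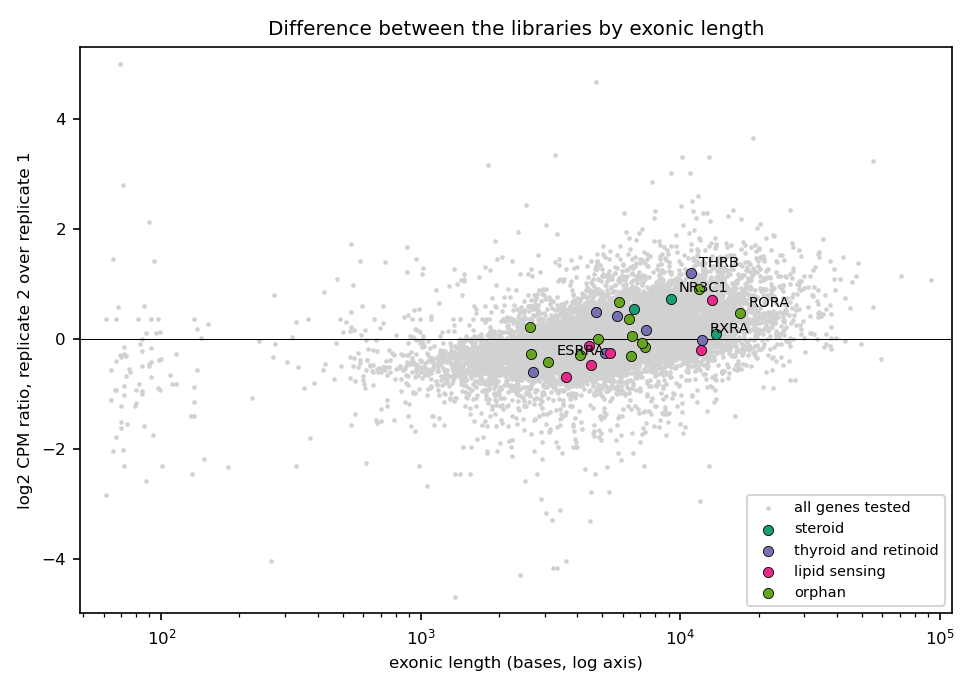
Log2 ratio of CPM, replicate 2 over replicate 1, against exonic length on a log axis, for 11781 genes (grey) and the 29 receptors with at least 10 counts, coloured by class. Long receptors such as THRB at 1.19 and NR3C1 at 0.73 lie above 0 and short ones such as ESRRA at -0.42 below, whereas the long PPARG at -0.21 and the short NR1D1 at 0.22 go the other way.

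The chaperones that hold steroid receptors ready for hormone were abundant. All 7 of those listed were expressed, led by HSPA8, HSP90AA1 and HSP90AB1 with 2736, 2241 and 2073 CPM. The cochaperones PTGES3, STIP1 and FKBP4 had 372, 265 and 164 CPM. FKBP5, which both restrains the glucocorticoid receptor and is induced by it, had 44.9 and 57.2 CPM in the libraries. The sums of the 7 genes, 7762 and 8042 CPM, lay close together.

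Coregulators were present without exception, with 9 of 9 coactivators and 8 of 8 corepressors expressed. Among the coactivators, CARM1, an arginine methyltransferase, had 157 ± 2.13 CPM (SD, n = 2), and NCOA3, the steroid receptor coactivator amplified in some breast tumors, had 70.3 and 130 CPM. The acetyltransferases CREBBP and EP300 had 85.4 ± 46.6 and 69.1 ± 46.7 CPM (SD, n = 2 each). The lowest were PPARGC1A and PPARGC1B, partners of the estrogen-related receptors in mitochondrial gene control, with 1.89 ± 0.398 and 10.7 ± 3.79 CPM (SD, n = 2 each). Among the corepressors, SPEN had 59.8 and 189 CPM, and TBL1X and the deacetylase HDAC3 had 119 ± 27.2 and 104 ± 17.3 CPM (SD, n = 2 each). Their partners in corepressor complexes, TBL1XR1, NCOR1 and GPS2, had 92.9 ± 6.31, 59.3 ± 18.2 and 36.1 ± 0.986 CPM (SD, n = 2 each). LCOR and NRIP1, which bind liganded receptors, were the lowest with 8.84 ± 3.85 and 32.0 ± 16.3 CPM (SD, n = 2 each). The coactivators summed to 394 and 685 CPM in the libraries and the corepressors to 482 and 669 CPM, in proportion wider gaps than that of the chaperones. The part of exonic length in these gaps was not tested.

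Enzymes and binding proteins that supply ligands were low. Of 9 listed genes, 4 were expressed and 3 had none. ALDH1A3 and RDH10, which make retinoic acid from retinol in successive steps, had 8.91 ± 0.691 and 6.52 ± 1.52 CPM (SD, n = 2 each), whereas ALDH1A1, ALDH1A2 and the binding protein CRABP1 had no counts. HSD11B1, which regenerates cortisol from cortisone, had 146 and 56 counts. CYP19A1, the aromatase that makes estrogen, had 53 and 42 counts.

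Genes known as glucocorticoid receptor targets were expressed in these cells, which grew with hydrocortisone. Of 8 listed, 7 were expressed. KLF9 and ERRFI1 were the highest with 124 ± 23.2 and 117 ± 17.7 CPM (SD, n = 2 each), FKBP5 had 51.1 ± 8.70 CPM and the phosphatase gene DUSP1 had 45.3 ± 12.3 CPM (SD, n = 2 each). SGK1, TSC22D3, the leucine zipper known as GILZ, and the clock gene PER1 had 23.3, 21.5 and 17.4 CPM. ZBTB16 had 6 counts in each library. No library without hydrocortisone was analysed here, and these genes also answer to other signals.

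Of 6 estrogen receptor targets, 2 were expressed. XBP1, a factor of the unfolded protein response as well, had 191 ± 6.31 CPM (SD, n = 2), and GREB1 had 30 counts in each library. TFF1, TFF3, AGR2 and PDZK1 had between 0 and 7 counts in a library.

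Genes around the thyroid hormone and vitamin D receptors split sharply. DIO2, the deiodinase that makes the active thyroid hormone inside cells, had 7858 and 4775 counts, equal to 303 ± 53.4 CPM (SD, n = 2), while DIO1, DIO3 and THRSP had none. The corepressor gene HR had 21 and 10 counts. CYP27B1, which activates vitamin D, had 222 and 123 counts and 8.24 ± 1.98 CPM (SD, n = 2). CYP24A1, which degrades vitamin D and is the most inducible target of VDR, had 1 count in each library, and TRPV6 and CAMP had none.

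Retinoic acid targets were also uneven, with 4 of 7 expressed. TGM2, a transglutaminase, had 125 ± 8.75 CPM (SD, n = 2). DHRS3, CYP26B1 and CRABP2 were all lower in replicate 2, with 13.1 and 5.73 CPM for DHRS3, 3.73 and 1.06 CPM for CYP26B1 and 4.25 and 2.78 CPM for CRABP2. STRA6 had 11 and 3 counts, and CYP26A1 and RARRES1 had none.

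All 7 liver X receptor targets were expressed. SCD, which makes monounsaturated fatty acids, had 1295 ± 182 CPM (SD, n = 2), and SREBF1, LPCAT3 and MYLIP had 121, 93.2 and 80.5 CPM. The cholesterol exporters ABCA1 and ABCG1 had 10.7 ± 3.21 and 10.4 ± 0.463 CPM (SD, n = 2 each), and APOE had 30 and 13 counts. Of 6 PPAR targets only 2 passed, CPT1A with 72.3 ± 4.91 CPM and ANGPTL4 with 3.28 ± 0.704 CPM (SD, n = 2 each). CD36, PLIN2 and PDK4 had 8 and 1, 4 and 1, and 1 and 0 counts, and FABP4 had none.

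Of the targets of NR1I2, NR1I3 and NR1H4, ABCB1 stood alone. This gene of the drug efflux pump P-glycoprotein, which NR1I2 can induce in liver and gut, had 140 and 289 CPM, although NR1I2 and NR1I3 had no counts. CYP2B6 had 4 and 1 counts, CYP3A4 had 0 and 1, ABCB11 had 1 in each library and CYP7A1 had none. SLC51B is not among the symbols of the files used here. All 7 clock genes acted on by REV-ERB and ROR were expressed, in a narrow range from DBP with 9.28 ± 3.93 CPM to NFIL3 with 26.7 ± 0.783 CPM (SD, n = 2 each). ARNTL, NPAS2 and CRY1 had 22.0, 20.8 and 19.2 CPM, and PER2 and CLOCK had 11.2 and 10.1 CPM.

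**Figure D5:**
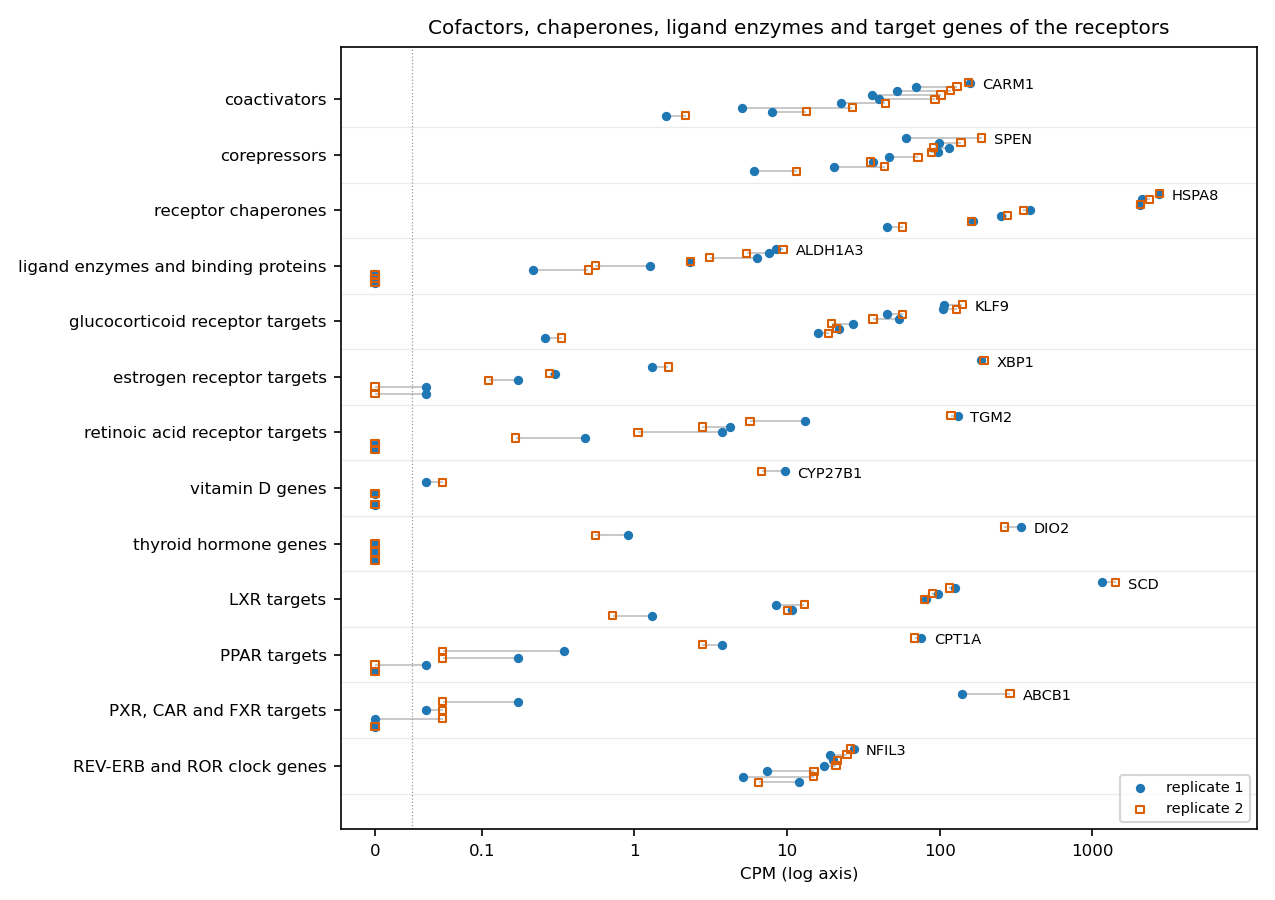
Levels in CPM (log axis) of genes that serve or answer to the receptors, by list, with circles for replicate 1, squares for replicate 2, a gene at 0 left of the dotted line and the highest gene of each list named. Chaperones reach 2736 CPM, all coregulators, liver X receptor targets and clock genes lie above 0, and DIO2 and ABCB1 stand far above the rest of their lists.

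Promoters of the expressed receptors were richer in CpG dinucleotides than those of the others. RefSeq windows of GRCh38.p14, mostly upstream of a transcription start, were matched for 40 of the 44 genes, all but VDR, HNF4G, NR2F6 and NR4A2. Taking for each gene the window with the most CpG, the median was 31 in the 21 receptors that were expressed and 17 in the other 19, given with no test. The same medians over all genes of the count files with a window were 29 in 8803 genes past the minimum and 9 in 5257 below it. Among genes with a single window, whose number of windows cannot add to the count, the medians were 27.5 in 10 expressed and 11 in 6 other receptors. The ranges of the receptors overlapped. Among the expressed genes RORA had 1 CpG, PPARG at most 10 and RARG 14, and among the others ESR2 had up to 34, RARB 33 and ESRRG 30.

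The windows of NR1H2, the highest receptor in CPM among those with a single window, and of its undetected classmate NR1I3 show this contrast, with each CpG in capitals. NR1H2, at chr19:50376207-50376506 on the plus strand of GRCh38.p14, has 22 CpG, and NR1I3, at chr1:161238154-161238453 on the minus strand, has 3. The other undetected receptors with a single window have more, NR2E3 with 8 and NR5A1 with 14, as many as the expressed RARG.
NR1H2: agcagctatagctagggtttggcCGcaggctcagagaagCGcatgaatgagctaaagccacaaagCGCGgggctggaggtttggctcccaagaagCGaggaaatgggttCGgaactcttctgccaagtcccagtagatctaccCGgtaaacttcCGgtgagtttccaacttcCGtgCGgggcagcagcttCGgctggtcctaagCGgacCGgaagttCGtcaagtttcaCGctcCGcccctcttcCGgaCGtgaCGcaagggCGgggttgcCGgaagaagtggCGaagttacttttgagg
NR1I3: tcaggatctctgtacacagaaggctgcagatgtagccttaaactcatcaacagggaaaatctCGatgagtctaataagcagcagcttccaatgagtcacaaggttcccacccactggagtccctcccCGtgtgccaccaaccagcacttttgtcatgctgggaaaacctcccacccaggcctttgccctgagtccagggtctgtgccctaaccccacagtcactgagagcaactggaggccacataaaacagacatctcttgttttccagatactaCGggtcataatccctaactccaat
The GC box GGGCGG, searched on both strands, occurred in a window of 18 of the 21 expressed receptors (85.7%) and of 11 of the other 19 (57.9%). Over all genes with a window it occurred in 77.9% of those past the minimum and 42.6% of those below it, and by single windows in 45.0% of 35116. AGGTCA, the core that most receptors of the common P box bind, was found on either strand in 10 of the 40 genes (25%), in 3 of the 21 expressed and 7 of the 19 other receptors, against 15.1% of 14060 genes and 13.8% of all windows. Members with several windows had more chances to hold either motif, and a match is a description of the bases and not of binding.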

How the data were processed

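For each library the authors deposited a column of raw counts by gene symbol, from single-end reads of directional poly(A) libraries that were mapped to hg19 with HISAT2 and counted with HTSeq. For both tools the version, and for HTSeq the annotation and strand mode, are not given in the sources used here. Reads in overlapping or repeated genes may have been left out.

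CPM were computed from the total of all counts, 23044084 and 17985508, and divided by the union of exons of GENCODE on GRCh37, matched by symbol for all 44 members and 82.6% of symbols. At this depth 1 count is 0.0434 and 0.0556 CPM. With a single condition, no test between conditions was made. The libraries were compared by the exact binomial test of edgeR 4.0.16 over 13744 genes with at least 10 counts, with Benjamini-Hochberg adjustment. Beforehand the test was tried on simulated data whose only noise was counting error. Such data cannot show how the test behaves where libraries differ by more than counting error. DESeq2 1.42.0 gave alternative size factors, and R 4.3.3 and Python 3.11.15 were used. Other minimum counts, scalings, filters, class limits and lengths and each library left out were tried. Members and lists were chosen with earlier results of these data known. All members are named, as are all genes of a list of up to 8 and otherwise the 4 highest and 2 lowest. Genes at 0 with equal rank and neighbours or overlapping genes of a member are named as well. Some genes of the lists are not reported here and were left out of their counts.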

Additional observations from a re-analysis of the deposited data

How the results depend on the processing

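The number of receptors past the minimum was 25 to 26 with each library left out, 29 at a minimum mean count of 10, 22 at 50 and 25 at a mean CPM of at least 1. Counting the estrogen-related receptors among the steroid receptors lowered the mean sum of the orphan receptors from 419 to 338 CPM. It raised that of the steroid receptors from 309 to 390 CPM. By mean CPM the steroid class was then the highest and the orphan class below the thyroid and retinoid receptors with 357 CPM. This lead of the steroid class did not hold in replicate 1. There steroid receptors had 233 CPM, estrogen-related receptors 92.6 CPM and thyroid and retinoid receptors 348 CPM. Sums per kb were not regrouped in this way. With a 1.5-fold difference in place of the test, 5 receptors were higher in replicate 2 and 2 in replicate 1, against 12.9% and 9.04% of genes tested, and after centring by length 2 and 0 were, against 8.28% and 7.43%. These rules count larger differences only. The other alternatives for the class sums, the minimum count and the test stayed within the spread or within 1.5 times, as did single receptors under both other scalings. Leaving out a library gives the value of the other, which with 2 libraries always lies within 1 SD of the mean and shows no stability. It moved THRB from 2.43 to 1.48 CPM without replicate 2, and ESR2, PGR, RXRB, NR2F1 and HNF4A, which had at most 5 counts in a library, by over 1.5 times as well, to 0.130, 0, 0.0434, 0 and 0 CPM at the lowest. With the length of the longest transcript, 9 of the 10 highest receptors per kb remained, but their order changed, with RXRA going from rank 6 to rank 4. The test between the libraries needs both and has no value with either left out. No paired analysis was possible because there is only 1 group.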
